A study of Mus musculus with 6 samples.

Results

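Rpl3 and Rpl3l encode alternative forms of one protein of the large ribosomal subunit. They were picked by symbol as 2 of the 24525 rows of a deposited expression table from mouse heart, and they were picked with their values in these libraries already known. The levels of the pair are therefore given as a description, without a test. RNA sequencing of total RNA from hearts gave 6 libraries, all from mice aged 3 to 6 months. Replicates 4, 5 and 6 carry the label WT (wild type), and replicates 7, 8 and 9 the label DKO (double knockout). DKO mice were Mbnl1-/-; Mbnl2cond/cond; Myh6-Cre+/-, so Mbnl1 was disrupted in every cell, while Mbnl2 was targeted only where the Myh6 promoter drives Cre, in cardiomyocytes. The sources used here do not give strain or sex, nor whether the WT mice carried the conditional allele or Cre. MBNL proteins regulate alternative splicing, and their sequestration by repeat RNA is central to myotonic dystrophy.

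The ribosomal protein uL3, encoded by Rpl3, lies in the core of the large subunit with an extension that reaches toward the peptidyl transferase centre. Most tissues use Rpl3 alone. Adult heart and skeletal muscle also express Rpl3l, whose product takes the same place in the ribosome. In muscle, Rpl3l is known to come up with maturation and to go down in growth or injury, and loss of Rpl3l is known to be met by more Rpl3.

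Expression was given as TPM, a unit that divides by transcript length and by the library total, so levels of both genes can be set side by side. Rpl3 lies on the minus strand of chromosome 15 (80077781 to 80083406, GRCm38) and Rpl3l on the plus strand of chromosome 17 (24727826 to 24736143). The longest coding transcripts in the GENCODE annotation have 10 exons each and code for 403 codons in Rpl3 and 407 in Rpl3l. Their coding sequences were identical at 74.3% of 1206 aligned bases, and the longest run without a difference was 22 bases. None of the 3249 different 31-base words in the 7 annotated Rpl3 transcripts occurred among the 1612 of the 3 Rpl3l transcripts (0 shared). The word of 31 bases is the default by which kallisto, the authors' quantifier, assigns reads; the length they used is not given. The coding stretches below show how far the paralogs can be told apart, first around the longest identical run and then in the most divergent ungapped window of the same length. Capitals mark bases that differ between the paralogs, 23 of 90 in the first stretch and 34 of 90 in the second. The first is coding bases 110 to 199, across the junction of exons 2 and 3, and the second is coding bases 856 to 945, within exon 7 (minus strand of chr15:80078713-80078802 and plus strand of chr17:24733923-24734012).
Rpl3, bases 110 to 199: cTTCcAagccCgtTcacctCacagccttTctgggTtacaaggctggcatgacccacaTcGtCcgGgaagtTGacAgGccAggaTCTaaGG
Rpl3l, bases 110 to 199: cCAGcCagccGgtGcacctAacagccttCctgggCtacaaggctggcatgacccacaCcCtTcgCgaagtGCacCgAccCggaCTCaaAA
Rpl3, bases 856 to 945: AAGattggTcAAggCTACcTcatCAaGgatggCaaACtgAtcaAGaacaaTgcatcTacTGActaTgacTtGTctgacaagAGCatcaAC
Rpl3l, bases 856 to 945: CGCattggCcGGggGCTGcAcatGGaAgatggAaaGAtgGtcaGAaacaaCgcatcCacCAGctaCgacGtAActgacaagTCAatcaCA
Rpl3 has processed pseudogenes, searched for here only under the names Rpl3-ps1 and Rpl3-ps2. Of the 1321 words of its main transcript, 87.2% also occurred in these 2, against 0 of the 1345 words of Rpl3l. The deposited table has no row for either pseudogene. Whether they were in the authors' index was not given in the sources used here, so how reads shared with Rpl3 were assigned is unknown.

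Rpl3l was the more abundant paralog in WT hearts and Rpl3 in DKO hearts. Rpl3l stood at 337, 357 and 314 TPM in WT replicates 4, 5 and 6 and at 111, 133 and 131 TPM in DKO replicates 7, 8 and 9. The lowest WT library thus lay well above the highest DKO library. Rpl3 stood at 210, 166 and 200 TPM in the same WT libraries and at 415, 478 and 424 TPM in the DKO libraries, again with no overlap. The groups did not overlap for 33.0% of the 14541 genes tested, and nothing is read from the count of 2 chosen genes against that share. The WT mean of Rpl3l, 336 ± 21.1 TPM, was 2.69 times the DKO mean, 125 ± 12.0 TPM (SD, n = 3), a log2(TPM + 1) difference of -1.42 (SE 0.09). For Rpl3 the means were 192 ± 22.8 and 439 ± 34.1 TPM (SD, n = 3), a DKO level 2.29 times that of WT and a log2(TPM + 1) difference of 1.19 (SE 0.10). The smallest gap between the groups, 1.23 for Rpl3l and 0.98 for Rpl3 on that log2 scale, exceeded the range within either group, which was at most 0.26 and 0.33. Among all rows of a library, Rpl3l ranked 363 to 411 by TPM in WT and 1002 to 1147 in DKO, while Rpl3 moved from ranks 618 to 750 up to ranks 302 to 337.

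The ratio within a library does not depend on its TPM total. There were 0.624, 0.466 and 0.635 Rpl3 transcripts per Rpl3l transcript in WT 4, 5 and 6, and 3.73, 3.59 and 3.25 in DKO 7, 8 and 9. Rpl3 thus made up 36.4 ± 3.94% of the summed level in WT and 77.9 ± 1.25% in DKO (SD, n = 3). The log2 ratio differed by 2.63 (SE 0.16), a 6.18-fold change, against a spread of 0.45 among the WT and 0.20 among the DKO libraries. WT 5 had both the highest Rpl3l and the lowest Rpl3 of the 6 libraries, and without it the ratio change was 5.59-fold. WT 5 also stood apart in erythroid markers, whose sum was 38471 TPM, against 1786 to 14184 TPM in the other libraries. Its atrial marker sum, 396 TPM, was the lowest, against 1695 to 6662 TPM. Most of that sum was Nppa, at 242 TPM in WT 5 and 2188 to 3855 TPM in DKO. Myl7, another atrial marker, was 39.4 TPM in WT 5 and 82.9 to 172 TPM in DKO. It was highest in WT 4, at 932 TPM, and was 320 TPM in WT 6. The part of these differences in the Rpl3 and Rpl3l levels of WT 5 was not tested.

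The summed level of the pair changed far less. It was 547, 523 and 514 TPM in WT and 526, 611 and 555 TPM in DKO, so the groups overlapped. The means were 528 ± 16.9 and 564 ± 43.3 TPM (SD, n = 3), a log2 difference of 0.09 (SE 0.07), about the size of the spread between libraries (pooled SD 0.08). The 46 other large-subunit genes had a median of 502, 490 and 511 TPM in WT and 657, 625 and 610 TPM in DKO. Against that median the sum was 1.09, 1.07 and 1.01 in WT and 0.801, 0.978 and 0.909 in DKO, with no overlap but a gap of only 0.04 on the log2 scale. Rpl3 alone exceeded 2 or 3 of the 46 genes in the WT libraries and 12 to 14 in the DKO libraries. Rpl3l exceeded 11 to 14 of them in WT and 1 in each DKO library.

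**Figure D1:**
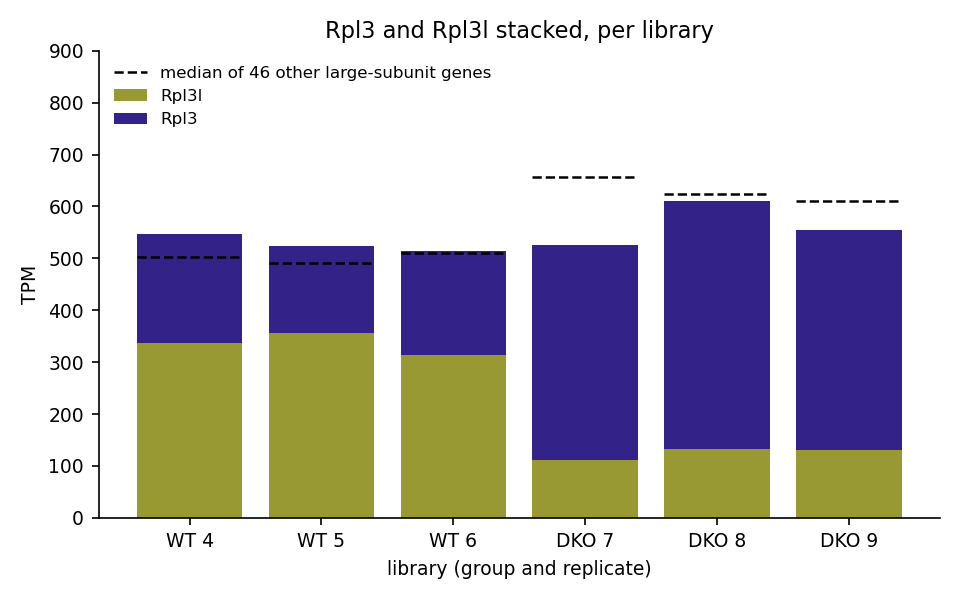
TPM of Rpl3l (lower part) and Rpl3 (upper part) stacked for each library, with a dashed line at the median TPM of the 46 other large-subunit genes of that library. The stacks reach 514 to 547 TPM in WT and 526 to 611 TPM in DKO while their main part passes from Rpl3l to Rpl3; the dashed line is below the top in WT and above it in DKO.

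The labels of DKO 7 conflict, since the genotype tag reads WT while the other labels read DKO. Its Rpl3 to Rpl3l ratio, 3.73, was the highest of the 6, next to the 3.59 of DKO 8. With DKO 7 counted as WT the change in the ratio was 3.75-fold. The pair was picked with these values known, so nothing about the label is read from its ratio. Mbnl1, a targeted gene, stood at 102 TPM in DKO 7 and at 108 and 107 TPM in DKO 8 and 9. In WT it was 145 to 161 TPM. Xist stood at 152 TPM in DKO 7 and 174 TPM in DKO 8, whereas Y-linked transcripts were found in all WT libraries and in DKO 9, so sex and genotype cannot be fully told apart. DKO 9, the only DKO library with Y-linked transcripts, had 424 TPM of Rpl3 and 131 TPM of Rpl3l, inside the range of the other DKO libraries for Rpl3l and for Rpl3. Over the libraries with Y-linked transcripts alone the change in the ratio was 5.70-fold. Of the targeted genes, Mbnl1 fell from 155 ± 8.98 to 106 ± 3.16 TPM (SD, n = 3; limma, Benjamini-Hochberg (BH) adjusted p = 0.00673), and Mbnl2 rose from 169 ± 20.1 to 237 ± 9.46 TPM (limma, BH adjusted p = 0.0232). The rise of Mbnl2 goes against the genotype at the level of the summed gene, which includes transcript parts outside a deletion, and its call was lost in 5 of the 6 fits that left out 1 library (adjusted p up to 0.0748); directions below rest on libraries labelled DKO.

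In a whole heart, fewer cells of a type and less RNA per cell cannot be told apart, and Rpl3 is made by every cell while Rpl3l is made by striated muscle. All 10 cardiomyocyte markers were expressed, and their summed level was 77534 to 80092 TPM in WT and 75974 to 76913 TPM in DKO, 0.971 of WT; Ttn rose, Tnni3 and Ryr2 fell, and 7 were not called. Without 1 library, Ttn was called in 0, Ryr2 in 5 and Tnni3 in 6 of the 6 fits. Per 1000 TPM of that sum, Rpl3l was 4.21, 4.60 and 3.99 TPM in WT and 1.45, 1.75 and 1.70 TPM in DKO, a log2 difference of -1.39 (SE 0.10), about as large as without this scaling. For the marker counts, the share over all genes tested was 6.51% called higher and 4.22% lower in DKO. Against these shares, nothing is read from a count of 1 or 2 markers. Fibroblast markers summed to 1026 to 1082 TPM in WT and 1415 to 1744 TPM in DKO, with 6 of 10 called higher and none at 0. The 4 not called were Pdgfra, Dcn, Tcf21 and Dpt. Their DKO means were 1.06, 1.09, 1.45 and 1.14 times those of WT, and their groups overlapped. Macrophage and monocyte markers summed to 376 to 529 and 628 to 892 TPM, with 5 of 10 higher. Endothelial markers summed to 1960 to 2412 and 1808 to 1934 TPM, with 2 of 10 lower. The part of these cells in the rise of Rpl3 was not tested. Smooth muscle and pericyte markers summed to 723 to 768 and 695 to 887 TPM, with 1 of 10 higher and 2 lower. Acta2, smooth muscle actin, rose from 66.5 ± 11.1 to 228 ± 63.3 TPM (SD, n = 3; limma, BH adjusted p = 0.00726), while Tagln and Kcnj8 fell. The median log2 difference of this list was -0.38, and Acta2 was 1 of only 2 genes above 0. Without overlap between groups, 5 were lower and 1 higher in DKO, against 13.8% and 19.1% of all genes tested. Erythroid markers summed to 6049 to 38471 TPM in WT and 1786 to 6768 TPM in DKO, with 1 of 7 tested lower. Atrial markers summed to 396 to 6662 and 2466 to 4179 TPM, with 1 of 6 lower. Most of this sum was Nppa, with means of 1805 TPM in WT and 3277 TPM in DKO. Nppa was the only 1 of the 6 with a log2 difference above 0, and it was not called. Myl7, Myl4 and Sln had means of 430, 412 and 170 TPM in WT and 140, 128 and 33.8 TPM in DKO. Their groups overlapped and they were not called. Lymphocyte markers summed to 15.9 to 28.2 and 24.3 to 25.1 TPM, with 1 of 5 tested lower, and adipocyte markers to 39.6 to 65.1 and 36.0 to 93.1 TPM, with 0 of 5 tested called. The calls of the erythroid and atrial genes were lost in each fit without 1 library that tested them, that of Kcnj8 in 4 of 6 and that of the lymphocyte gene in 2 of 3. Of the fibroblast genes, Col3a1, Postn and Mfap5 stayed called in all 6 fits, while Col1a1 and Col1a2 lost the call in 4 and Lum in 5. Of the macrophage and monocyte genes, C1qa and Ms4a7 stayed called in all 6, while C1qb lost the call in 3, C1qc in 4 and Adgre1 in 5. The endothelial genes Cdh5 and Tie1 lost the call in 6 and 5 of the 6 fits.

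Rpl3l is also made by skeletal muscle, whose markers were checked for that reason. The skeletal list summed to 2160 to 2517 TPM in WT and 2146 to 2370 TPM in DKO, most of it the creatine kinase Ckm that heart expresses too. Myl1, a myosin light chain, rose from 70.4 ± 14.5 to 173 ± 30.0 TPM (SD, n = 3; limma, BH adjusted p = 0.0103) and was the only one of the 4 tested to be called, opposite in sign to Rpl3l. Mylpf was 1.23 to 2.82 TPM in WT and 2.36 to 7.18 TPM in DKO. Myh4, Tnnt3, Tnni2 and Actn3 stood at 1.70, 5.50, 1.67 and 2.35 TPM in WT 4, and each was below 1 TPM in WT 5 and WT 6. In DKO, Tnnt3 was 1.13 to 1.51 TPM, Tnni2 reached 2.84 TPM in DKO 7, and Myh4 and Actn3 stayed below 1 TPM. The fast myosins Myh1 and Myh2 and the factor Myod1 stayed below 1 TPM in all 6 libraries.

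The rest of the ribosome was examined with genes the choice of the pair did not use. Over all 14541 genes tested, 6.51% were called higher and 4.22% lower in DKO (10.7% in all; limma on log2(TPM + 1), BH adjusted over all genes, threshold 0.05), with a median log2 difference of 0.03. Of the 46 other large-subunit genes, 35 rose, 0 fell and 11 were not called, with a median log2 difference of 0.37 and a range of 0.05 to 0.63. Of 33 small-subunit genes, 23 rose, 0 fell and 10 were not called, with a median of 0.35. Rpl36a went from 227 ± 10.3 to 352 ± 33.2 TPM (SD, n = 3), which is 0.63 higher on the log2 scale (SE 0.08; limma, BH adjusted p = 0.00776) and the highest difference of the large-subunit list. Rpl12, Rpl27 and Rpl39 rose by 0.48, 0.49 and 0.45 on the log2 scale. In the small subunit, Rps12 went from 685 ± 16.3 to 946 ± 17.7 TPM (SD, n = 3) and Rps27a from 423 ± 6.05 to 570 ± 5.33 TPM (SD, n = 3), with log2 differences of 0.46 and 0.43. Rps24 and Rps28 rose by 0.58 and 0.54. The log2(TPM + 1) difference of Rpl3, 1.19, lay above that of each of these 79 genes, and Rpl3 relative to the large-subunit median was 0.418, 0.339 and 0.391 in WT and 0.631, 0.765 and 0.695 in DKO.

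These counts moved when a library was left out. The large-subunit count was 18, 16 and 16 without WT 4, 5 and 6, and 15, 12 and 25 without DKO 7, 8 and 9; the small-subunit count was 14, 13 and 14, and 13, 11 and 16. With a term for sex-linked transcripts 0 of either list were called, with a median log2 difference of 0.29 for the large subunit, and 44 genes were called higher and 48 lower in all. The 8 genes named here, called in each of the 6 fits that left out 1 library, have the 4 smallest p of each list. They were thus the likeliest to stay called and do not stand for the rest of the lists. Many ribosomal protein genes have processed pseudogenes, so the division of their reads is an estimate.

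**Figure D2:**
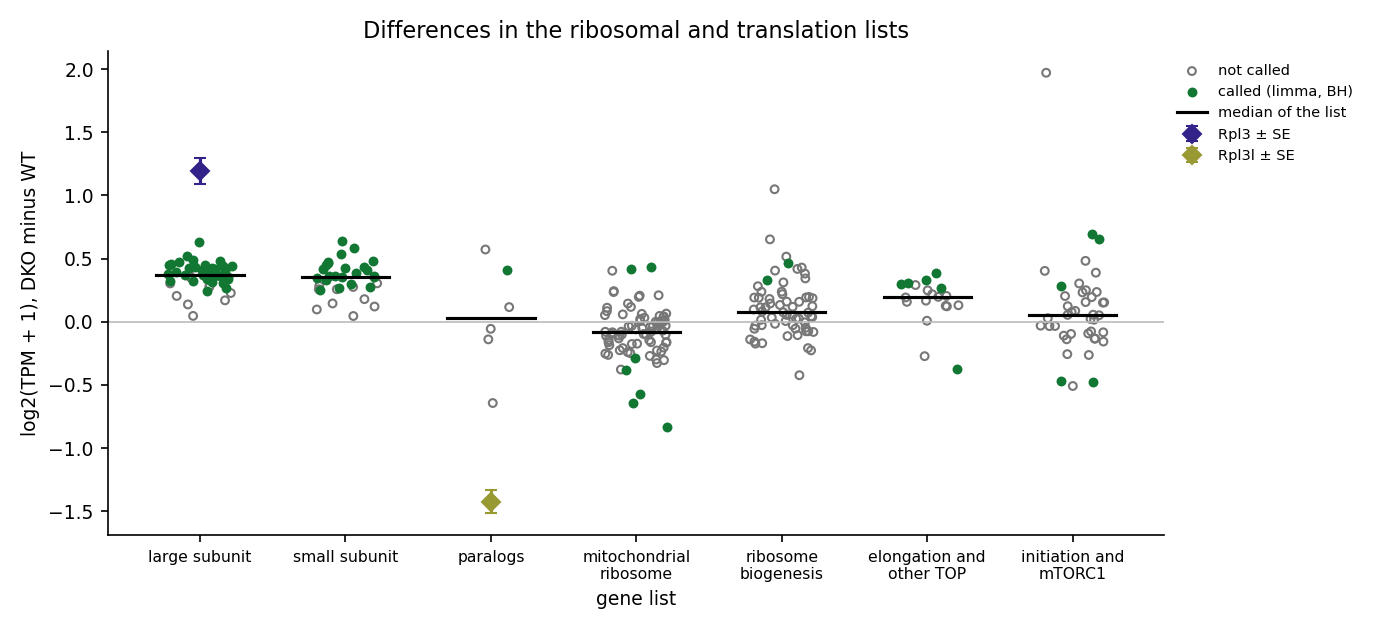
Differences in log2(TPM + 1), DKO minus WT, of the tested genes of 7 lists (filled points passed limma with BH adjustment, open points did not, bars are list medians); diamonds are Rpl3 and Rpl3l with their SE. Rpl3 at 1.19 lies above the large-subunit genes, which range from 0.05 to 0.63, and Rpl3l at -1.42 lies below the other paralogs; the open point at 1.97 is Eif3j1, which was listed at 0 in WT 4.

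Other ribosomal proteins have paralogs too. Of 9 listed, 6 were expressed enough to be tested, 1 rose and 0 fell, with a median log2 difference of 0.03. With 10.7% of all genes tested called, nothing is read from that count. Rps27l, a p53-responsive paralog of Rps27, rose from 211 ± 13.6 to 281 ± 25.0 TPM (SD, n = 3; limma, BH adjusted p = 0.0318), a call lost in 5 of the 6 fits without 1 library (adjusted p up to 0.0976). Rps4l had 28.6, 27.6 and 23.6 TPM in WT and 18.4, 23.5 and 10.5 TPM in DKO, with no overlap, and was not called (BH adjusted p = 0.179 by limma). Rpl22l1 (log2 difference -0.14), Rpl36al (0.12), Rpl7l1 (-0.06) and Rps19-ps3 (0.57) were not called. Rpl10l and Rpl39l, known from testis, were listed at 0 in all libraries and in 5 of 6, and Rps27rt stayed near 0 in all 6.

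Ratios of 5 further paralog pairs, formed after the data were seen, are set beside that of the pair. The log2 ratio of Rpl22 to Rpl22l1 differed between DKO and WT by 0.47 (SE 0.15), that of Rpl36a to Rpl36al by 0.52 (SE 0.11), that of Rpl7 to Rpl7l1 by 0.51 (SE 0.16) and that of Rps27 to Rps27l by -0.29 (SE 0.08). The elongation factor eEF1A also has a form found in adult muscle and neurons, Eef1a2. Eef1a1 rose from 792 ± 79.5 to 1032 ± 43.4 TPM (SD, n = 3; limma, BH adjusted p = 0.0348), a call lost in 5 of the 6 fits without 1 library (adjusted p up to 0.0973), while Eef1a2 was 1151 ± 52.8 in WT and 1157 ± 24.2 TPM in DKO (SD, n = 3). Eef1a2 was thus the higher of these in every library, and the log2 ratio of Eef1a1 to Eef1a2 differed by 0.38 (SE 0.10), against 2.63 (SE 0.16) for Rpl3 to Rpl3l.

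**Figure D3:**
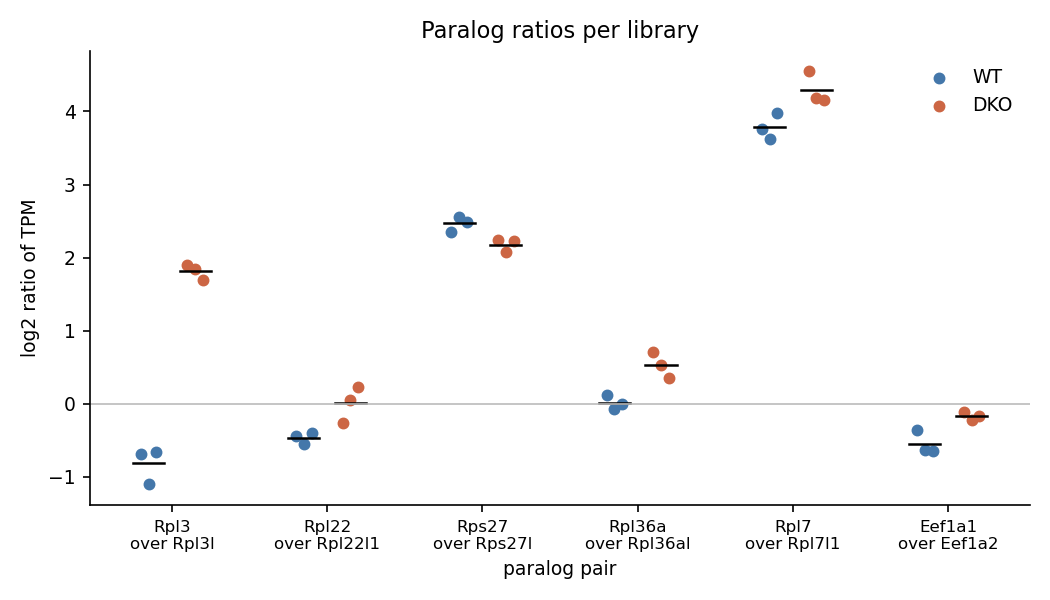
Log2 ratio of TPM for 6 paralog pairs in each library (blue WT, orange DKO; bars are group means). For Rpl3 over Rpl3l the WT libraries lie between -1.10 and -0.65 and the DKO libraries between 1.70 and 1.90; the group means of the other pairs differ by 0.52 or less.

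Few of the genes that build ribosomes were called, 3.23% against 10.7% of all genes tested. Of the 62 tested, 42 had a log2 difference above 0, against 7960 of all 14541 genes. Without overlap between groups, 16 were higher and 1 lower in DKO, against 19.1% and 13.8% of all genes tested. Of 62 ribosome biogenesis genes 2 rose and 0 fell (median log2 difference 0.08). These were the nucleolar chaperone Npm1, from 179 ± 9.61 to 225 ± 5.71 TPM (SD, n = 3; limma, BH adjusted p = 0.0236), and Polr1c, a subunit of RNA polymerases I and III, from 14.5 ± 0.258 to 20.4 ± 1.14 TPM (SD, n = 3; limma, BH adjusted p = 0.0257). Without 1 library Npm1 was called in 1 of the 6 fits, that without WT 4, and Polr1c in 0 (adjusted p 0.0583 to 0.0780). The count of rises was 2 without WT 4, where Myc was the other gene, 0 without any other single library, and 5 with TPM rescaled without short RNA and haemoglobin. Nhp2 and Nop10, both of box H/ACA particles, missed the threshold (limma, BH adjusted p = 0.0569 and 0.0595). Grwd1, the chaperone that delivers uL3 to the nascent ribosome, had 15.5, 10.4 and 12.9 TPM in WT and 13.1, 15.4 and 11.2 TPM in DKO, which overlap. Mettl18, the enzyme that methylates a histidine of uL3, had 7.73, 4.27 and 5.24 TPM in WT and 4.44, 3.58 and 3.77 TPM in DKO, which overlap, and was not called (BH adjusted p = 0.264 by limma).

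A further list held elongation factors, the kinase Eef2k and mRNAs listed as having a 5′ terminal oligopyrimidine tract (TOP). Ribosomal protein mRNAs belong to the TOP class. The tract itself was not checked here. Of the 19 genes listed, 5 rose and 1 fell (median log2 difference 0.20). The share called was 31.6%, against 10.7% of all genes tested. The translocase Eef2 went from 877 ± 24.3 to 1054 ± 48.3 TPM (SD, n = 3) and Eif3h from 194 ± 8.37 to 244 ± 9.68 TPM (SD, n = 3); Eef2 was called in 0 and Eif3h in 1 of the 6 fits without 1 library. The helicase Eif4a2 fell by 0.37 on the log2 scale and was called in each. The count of rises was 2 with median-ratio scaling and 3 with quantile scaling; it was 1 without WT 4 or WT 6 and 0 without WT 5, DKO 7, DKO 8 or DKO 9.

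Of 42 initiation and mTORC1 genes, 3 rose and 2 fell (median log2 difference 0.05). The share called, 11.9%, is near the 10.7% of all genes tested, so nothing is read from this count. Eif4ebp1, the repressor that binds the cap-binding protein eIF4E, rose from 92.1 ± 5.44 to 150 ± 11.1 TPM (SD, n = 3; limma, BH adjusted p = 0.00588), and Eif4e itself fell from 61.5 ± 1.29 to 44.3 ± 2.33 TPM (SD, n = 3; limma, BH adjusted p = 0.0116). The start codon factor Eif1 fell by 0.48, and Rragd, a GTPase that activates mTORC1, rose by 0.66. Eif3a rose by 0.28 and was not called in any fit without 1 library (adjusted p 0.0737 to 0.132). The other 4 were called in each of them.

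Mitochondria have ribosomes of their own. Of 78 mitochondrial ribosomal protein genes, 2 rose and 5 fell, with a median log2 difference of -0.08 and 25 of 78 above 0. The share called, 8.97%, is near the 10.7% of all genes tested. Mrpl28 fell from 170 ± 7.22 to 109 ± 4.46 TPM (SD, n = 3; limma, BH adjusted p = 0.00428), and Mrpl55, Mrpl14 and Mrpl44 by 0.57, 0.84 and 0.39 on the log2 scale. Mrpl3, the mitochondrial counterpart of uL3, had 112, 95.5 and 115 TPM in WT and 81.0, 89.6 and 89.9 TPM in DKO, with no overlap. It missed the threshold (limma, BH adjusted p = 0.0847, or 0.0385 with median-ratio scaling). Without 1 library Mrpl3 was called in 0 of the 6 fits (limma, BH adjusted p 0.05145 to 0.2133). The count of falls was 10 with median-ratio scaling and 11 when rescaled without short RNA and haemoglobin. It was 3 without WT 4, 5 or 6 or DKO 7 or 9, and 4 without DKO 8; the count of rises was 1 without WT 6 and 0 without any other. Mrpl44 was called in 1 of these 6 fits and the other 3 named falls in all.

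The chromosomal neighbours of the pair, which the choice did not use, are given next. Of the 3 nearest tested protein-coding genes on each side of Rpl3l, 1 of 6 rose, Hagh, and 0 fell. Since 10.7% of all genes tested were called, nothing is read from the number of called neighbours of either gene. Msrb1, 450 bases beyond Rpl3l, had 167, 141 and 124 TPM in WT and 161, 185 and 147 TPM in DKO. Ndufb10, 3403 bases before it, had 833 ± 57.7 and 797 ± 25.2 TPM (SD, n = 3), and its neighbour Rps2, itself a ribosomal protein gene, 1200 ± 70.4 and 1238 ± 54.3 TPM (SD, n = 3). Tbl3 and Fahd1 were not called either. Hagh, a glyoxalase 103638 bases away, rose from 79.8 ± 6.22 to 182 ± 9.07 TPM (SD, n = 3; limma, BH adjusted p = 0.00141), opposite in sign to Rpl3l, and stayed called in each fit without 1 library. Around Rpl3, the kinase adaptor Tab1 rose from 16.5 ± 0.823 to 24.8 ± 1.78 TPM (SD, n = 3; limma, BH adjusted p = 0.0171) and the glycosyltransferase Mgat3 fell from 4.35 ± 0.406 to 2.11 ± 0.324 TPM (SD, n = 3; limma, BH adjusted p = 0.0309). Tab1 lost its call in 4 and Mgat3 in 6 of the 6 fits without 1 library (adjusted p up to 0.0622 and 0.0986). Syngr1, 7928 bases from Rpl3, had no overlap between groups (122, 95.3 and 96.5 against 142, 128 and 151 TPM). It missed the threshold (limma, BH adjusted p = 0.0611, or 0.0295 without WT 4) and was not called in the other 5 fits without 1 library. Apobec3, Cbx7 and Pdgfb were not called.

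**Figure D4:**
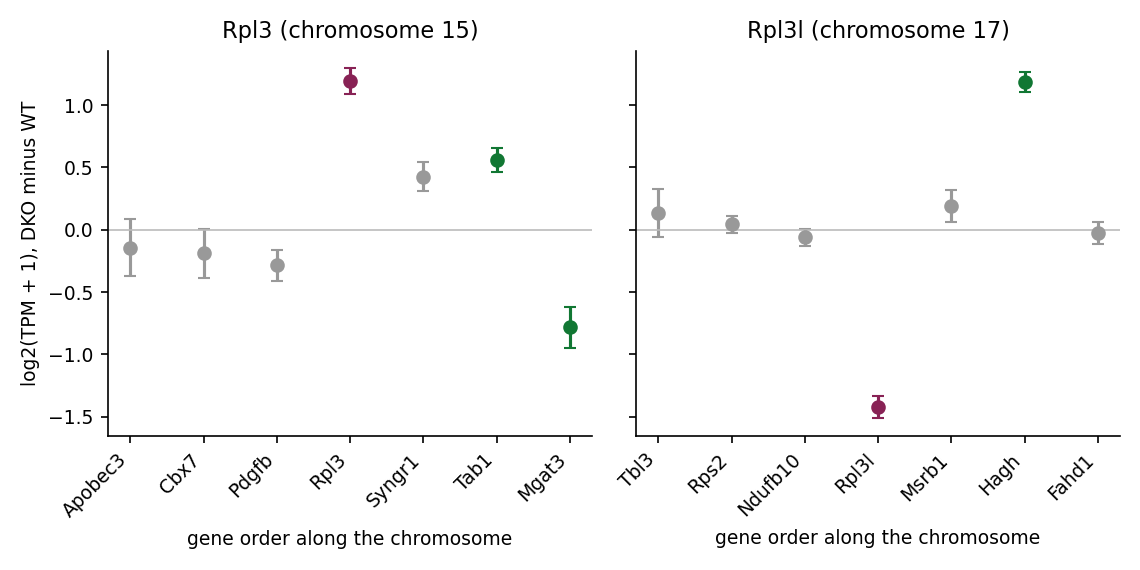
Differences in log2(TPM + 1), DKO minus WT, with their SE, for Rpl3, Rpl3l (purple) and the 3 nearest tested protein-coding genes on each side in chromosomal order (green called by limma with BH adjustment, grey not called). Rpl3l at -1.42 stands among neighbours near 0 apart from Hagh at 1.18, and Rpl3 at 1.19 among neighbours between -0.78 and 0.56.

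Genes whose levels ran most closely with the pair were ranked by Pearson r of log2(TPM + 1) over the 6 libraries, among 13070 genes. With 2 groups of 3 libraries, r is high for many genes: 8.68% reached 0.9 with Rpl3 and 6.08% with Rpl3l. Closest to Rpl3 were the fatty acid desaturase Fads1 (r = 0.9986), brain creatine kinase Ckb (0.9982), the small-subunit protein gene Rps3a1 (0.9970), Spg11 (0.9965) and Necap2 (0.9963). Fads1 had 16.9, 13.9 and 17.2 TPM in WT and 36.5, 41.1 and 35.9 TPM in DKO, and like Rpl3 it was lowest in WT 5 and highest in DKO 8. Closest to Rpl3l were the mitochondrial trifunctional protein subunit Hadha (r = 0.9993), the proline pathway enzyme Aldh4a1 (0.9992), the nuclear envelope protein Sun2 (0.9981), the RNA polymerase I factor subunit Taf1a (0.9980) and cardiac troponin I, Tnni3 (0.9975). Hadha had 926, 957 and 908 TPM in WT and 502, 541 and 542 TPM in DKO, and like Rpl3l it was highest in WT 5 and lowest in DKO 7. Likeness to a pair that splits by group nearly fixes a difference between the groups, so no test is read for these 10 genes.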

How the data were processed

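Total RNA from heart was read as strand-specific paired-end libraries, 2 times 75 bases, per the labels and the design text. The authors deposited 1 table of TPM values, 1 per gene and library. The submitters' processing notes name bcl2fastq, kallisto 0.44.0 and mm10. The annotation and the way transcripts were summed to genes were not given in the sources used here. TPM keeps no counts, so the depth is unknown and no counting interval is given. Groups follow the titles. No label ties a library to an animal of its own, and the p-values then cover the spread between libraries, which may be technical.

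Levels, ratio and sum of the pair were computed from the deposited TPM values. The filter for testing was 1 TPM or more in 3 or more libraries. limma 3.58.1 (lmFit, eBayes with trend; R 4.3.3) was fitted to log2(TPM + 1), a scale that understates changes of low genes, with BH adjustment over all 14541 genes. The fit was tested on simulated data. The members and lists were chosen with earlier results of these data known. Named genes are the pair, Mbnl1, Mbnl2, Mrpl3, Grwd1, Mettl18, the paralogs, small nucleolar RNAs inside Rpl3, 3 neighbours on each side, the 4 smallest p of each list (all called genes where 5 or fewer were) and the 5 genes most like each member. Eef1a2, Myc, Eif3j1 and the named cell type markers were chosen after their values were seen. Gene positions are from RefSeq and transcripts from GENCODE, both on GRCm38; coding sequences were aligned with biopython 1.88. Protein sequences are not used here. Alternatives were a pseudocount of 0.1, other filters (none, or 5 TPM), scaling by median ratios, by quantiles or without short RNA and haemoglobin, eBayes without trend, array weights, a covariate for sex-linked expression, Y-positive libraries alone, replicate 7 as WT, and each library left out.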

Additional observations from a re-analysis of the deposited data

How the results depend on the processing

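The differences of Rpl3, Rpl3l, their log2 ratio and their log2 sum kept their sign under each of the scalings, pseudocounts and library choices tried. Leaving out 1 library gave 1.09 to 1.26 for Rpl3, -1.47 to -1.34 for Rpl3l, 2.48 to 2.71 for the ratio and 0.03 to 0.14 for the sum. With replicate 7 counted as WT, Rpl3, Rpl3l and the ratio moved to 0.95, -0.95 and 1.91. The counts of genes called higher and lower, 946 and 614, were 333 to 572 and 274 to 376 when 1 library was left out, 44 and 48 with a covariate for sex-linked expression, 8 and 21 in Y-positive libraries alone, and 0 and 1 with replicate 7 as WT; without trend 397 were lower. The large-subunit rises numbered 12 to 25 and the small-subunit rises 11 to 16 with 1 library left out, 11 and 11 without trend, and 0 and 0 with the sex covariate, in Y-positive libraries alone and with replicate 7 as WT. Of the 39 named genes called, 36 lost the call with the sex covariate (Hagh, Rragd and Hadha stayed) and all 39 with replicate 7 as WT. The 39 include the genes picked for likeness to the pair, Hadha among them. Their group difference was nearly fixed by that choice, so no test is read from their calls. Leaving out a library or adding a covariate removes residual degrees of freedom; the cause of the other changes was not tested.

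Some genes that were not called changed sign. Grwd1 was -0.0205 with quantile scaling, -0.0175 with array weights, -0.17 with the sex covariate or Y-positive libraries alone, and -0.10 to 0.17 with 1 library left out. Rpl7l1 was 0.0141 with array weights, 0.0612 with the sex covariate or Y-positive libraries, 0.16 with replicate 7 as WT, and -0.13 to 0.0798 with 1 library left out. Eef1a2 was -0.0184 with median-ratio scaling, -0.0193 with quantile scaling, -0.0096 without short RNA and haemoglobin, -0.0101 with array weights, -0.0256 with the sex covariate or Y-positive libraries, -0.0008 with replicate 7 as WT, and -0.0137 to 0.0457 with 1 library left out. Snord43 was 0.0075 with array weights, 1.95 with the sex covariate or Y-positive libraries, 2.56 with replicate 7 as WT, and -1.85 to 1.67 with 1 library left out. Snord83b was 0.26 with replicate 7 as WT and -0.94 to 0.53 with 1 library left out. Fahd1 was 0.0608 with the sex covariate or Y-positive libraries, 0.0101 with replicate 7 as WT, and -0.0948 to 0.0338 with 1 library left out. Cbx7 was 0.0522 with replicate 7 as WT. With 1 library left out, Rpl22l1 was -0.30 to 0.0444, Apobec3 -0.37 to 0.0171 and Tbl3 -0.0223 to 0.29. The table held no row named Rpl3-ps1 or Rpl3-ps2 to add, and pseudogenes of Rpl3 under other names were not searched for. No paired analysis was possible because the WT and DKO replicates share no numbers. What depth limits is unknown for TPM.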

Other observations

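Small nucleolar RNAs guide modification of ribosomal RNA, and introns of Rpl3 host some of them. Snord83b was listed at 56.7, 43.3 and 22.1 TPM in WT and at 25.9, 117 and 14.3 TPM in DKO. Snord43 was listed at 77.1, 0 and 19.6 TPM in WT and at 0, 29.8 and 44.2 TPM in DKO. The groups overlapped for both rows, and neither was called. Myc, a transcription factor that drives ribosome production, had 4.50, 1.55 and 2.27 TPM in WT and 5.76, 6.82 and 6.67 TPM in DKO, with no overlap. Myc missed the threshold (limma, BH adjusted p = 0.0652). Its adjusted p was 0.0210 without WT 4, 0.125 to 0.160 without any other single library, and 0.0412 with TPM rescaled without short RNA and haemoglobin.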
